A study of Mus musculus with 10 samples.

Results

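The interferon-inducible GTPases followed here are 9 genes picked by symbol and not by their values: the guanylate-binding proteins Gbp2, Gbp3, Gbp6 and Gbp7, the immunity-related GTPases Irgm1, Irgm2, Igtp and Iigp1, and the very large GTPase Gvin1. All 9 were rows of a count table of 23284 gene symbols, and 8 of them had enough counts to be tested among 15373 genes. Gvin1 had 0 counts in every library. The 3 cell populations compared came from C57BL/6 mice aged 6 to 8 weeks and were measured by RNA-seq. LN-LEC are lymphatic endothelial cells and LN-BEC blood endothelial cells of pooled lymph nodes (inguinal, axillary, brachial, cervical, mesenteric), and D-LEC are lymphatic endothelial cells of the diaphragm. No animal was labelled as treated or genetically altered, so the populations differ by organ and vessel type alone as far as the labels state. Cells bearing CD45 were depleted, CD31+ cells were sorted on podoplanin (PDPN), and each library came from cells of several mice. LN-LEC had 4 libraries and LN-BEC and D-LEC had 3 each, of 22429940 to 48906070 counted fragments, and 3 counts corresponded to 0.0613 to 0.134 CPM (counts scaled to library size).

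Interferons bind receptors that signal through Janus kinases to STAT proteins and interferon regulatory factors, which switch on many genes, and GTPases are among the most strongly induced of these in mice. Guanylate-binding proteins (GBPs) and immunity-related GTPases (IRGs) assemble on the vacuoles in which intracellular bacteria and parasites hide and help to break them open. The IRGs come as effectors, such as Iigp1, and as regulators (Irgm1, Irgm2 and Igtp) that sit on the cell's own membranes and hold the effectors in their inactive form. Lymph node endothelium lies beside lymphocytes and dendritic cells, which can release interferon, whereas the diaphragm is a muscle with an extensive lymphatic network.

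The division of the family can be read in the genes themselves. The first nucleotide-binding loop (G1) is encoded in these genes by 24 bases, shown here from the mm9 build because they mark which IRGs belong to the regulators. The capitals mark the codon in which the regulators differ from the other genes, and each sequence reads 5′ to 3′ on the coding strand.
Gbp2, chr3:142286790-142286813, plus strand: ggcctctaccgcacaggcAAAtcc
Gbp3, chr3:142224842-142224865, plus strand: ggtttatatcgtacagggAAGtcc
Gbp6, chr5:105719890-105719913, minus strand: ggattgtaccgtacagggAAGtcc
Gbp7, chr3:142197619-142197642, plus strand: ggactataccgtacgggaAAAtcc
Gvin1, chr7:113304269-113304292, minus strand: ggcctgcagagctcagggAAGtct
Igtp, chr11:58019777-58019800, plus strand: ggggactctggcaatggcATGtca
Irgm1, chr11:48680263-48680286, minus strand: ggggactctggcaatggcATGtca
Irgm2, chr11:58033197-58033220, plus strand: ggggactctggcaatggcATGtca
Each stretch lies in a single coding exon of the longest GENCODE vM1 coding sequence. Igtp, Irgm1 and Irgm2 shared all 24 bases and held ATG in the marked codon, while the 4 GBPs and Gvin1 held AAA or AAG. The effector IRG Iigp1, whose bases are not shown, held a lysine codon there, and the IRGs Ifi47 and Tgtp2 held AAG. The codon thus sets the regulators apart and does not divide IRGs from GBPs. Over the aligned coding sequence the regulators were less alike, with 74.4% of bases identical between Igtp and Irgm2, 70.6% between Igtp and Irgm1 and 69.4% between Irgm1 and Irgm2. Among the GBPs, Gbp3 and Gbp7 were 79.6% identical, and Gbp2 was 68.5% identical to Gbp3.

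The promoters held the letters that interferon-activated factors are known to read. The elements are shown to make the shared arrangement visible: GAS, the gamma-activated sequence, was searched as TTCNNNGAA, and ISRE, the interferon-stimulated response element, which interferon regulatory factors bind, as GAAA, any 2 bases and GAAA, both on either strand. Windows ran from 250 bases before to 50 bases after each RefSeq start in GRCm38.p6, a different build from that of the counts. Capitals mark the matches, overlapping ones run together, and an ISRE on the opposite strand reads TTTC, any 2 bases and TTTC.
Igtp, chr11:58199503-58199539, plus strand: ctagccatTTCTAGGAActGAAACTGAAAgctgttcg
Irgm2, chr11:58214894-58214930, plus strand: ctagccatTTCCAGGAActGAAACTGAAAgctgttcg
Irgm1, chr11:48871427-48871458, minus strand: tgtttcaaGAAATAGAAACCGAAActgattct
Gbp2, chr3:142620596-142620621, plus strand: tcttttagTTTCACTTTCactgtctt
Gbp3, chr3:142559991-142560022, plus strand: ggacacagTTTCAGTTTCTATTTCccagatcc
Gbp7, chr3:142530222-142530300, plus strand: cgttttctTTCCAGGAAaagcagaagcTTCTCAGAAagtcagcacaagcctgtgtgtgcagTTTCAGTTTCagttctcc
These 6 genes are those of the 9 with a window in the RefSeq table used here. An ISRE was present in a window of 6 of the 6 genes, against 3.99% of all 27025 genes with a window. A GAS was present in 3 (Gbp7, Igtp and Irgm2), against 9.55% of all genes, and both motifs stood together in these 3, against 0.540% of all genes. Gbp3 had a second window, from a later start, with neither motif. In Igtp and Irgm2 the GAS ended 2 bases before the ISRE. The same gap of 2 bases was found in the related Tgtp1, Tgtp2 and Gm12185. The shortest gap was 6 bases in Gm12250 and 71 in Gbp5, and the windows of Ifi47, Gm5431, 9930111J21Rik2 and Irgq held neither motif. A match of letters is a description of the sequence, and binding was not measured.

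The 8 measured GTPases were all transcribed in the 3 populations, and 7 of them were higher in LN-LEC relative to D-LEC. Levels are counts divided by size factors (normalized counts), and differences are log2 fold changes ± SE with adjusted p from edgeR's quasi-likelihood F test over all genes tested. The called differences ranged from 0.83 for Gbp3 to 2.24 for Iigp1, and Gbp2 was the exception. The median over the 8 genes was 1.56, beside 0.03 over all genes tested. Many genes differed between these populations: 45.8% of all genes tested were called, 24.0% as higher in LN-LEC. Between LN-BEC and D-LEC 8 of 8 GTPases were higher in LN-BEC, with a median of 1.66 beside 0.05 over all genes. There, 48.0% of all genes were called and 25.6% were higher in LN-BEC. Both comparisons share the D-LEC libraries and are not independent of each other.

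Single libraries were compared as well. For 7 of 8 GTPases all LN-LEC libraries lay above all D-LEC libraries, which held for 25.3% of all genes tested, and for no GTPase all lay below, as they did for 24.7% of all genes. For LN-BEC against D-LEC this was 8 of 8, and 29.0% of all genes (56.0% in either direction). In sorted bulk samples, fewer expressing cells and less RNA per cell cannot be told apart.

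**Figure D1:**
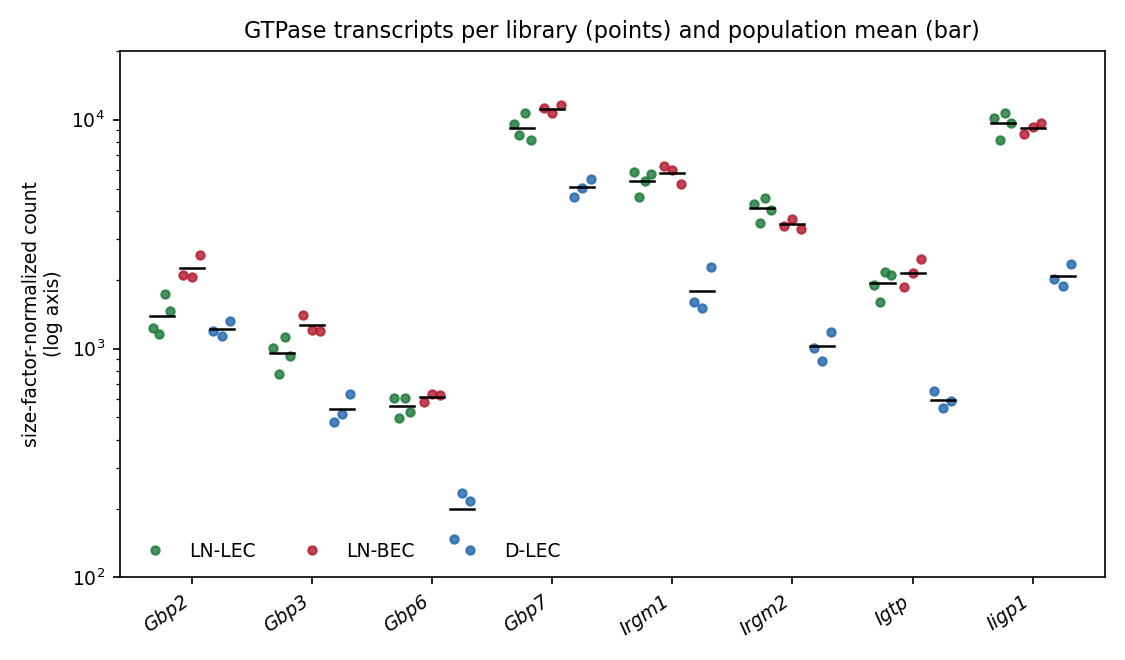
Size-factor-normalized counts (log axis) of the 8 measured GTPases, 1 point per library and a bar at the mean of each population. The D-LEC points lie below all lymph node points for 7 genes, and for Gbp2 they overlap those of LN-LEC (1162 to 1736 against 1136 to 1313).

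Iigp1, an effector IRG on chromosome 18 that coats parasite vacuoles, had the largest differences among the 8. Its normalized counts were 10159, 8144, 10737 and 9714 in LN-LEC, 8670, 9305 and 9671 in LN-BEC, and 2008, 1881 and 2341 in D-LEC. Even the lowest lymph node library stood well above the highest diaphragm library, and the lymph node populations overlapped. The difference from D-LEC was 2.24 ± 0.11 in LN-LEC (4.73-fold, adjusted p = 2.5e-09, edgeR) and 2.16 ± 0.12 in LN-BEC (4.45-fold, adjusted p = 3.8e-09). Between LN-LEC and LN-BEC it was 0.09 ± 0.11 (adjusted p = 0.56), which did not pass the test.

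Among the regulators, Irgm2 (chr11:58028479-58036285 in mm9, plus strand) had 4284, 3547, 4527 and 4011 normalized counts in LN-LEC, 3438, 3684 and 3336 in LN-BEC, and 1004, 881 and 1184 in D-LEC. The diaphragm libraries were again the lowest, and only LN-LEC replicate 2 lay within the range of LN-BEC. Irgm2 was higher in LN-LEC against D-LEC by 2.02 ± 0.12 (edgeR adjusted p = 8.1e-09) and in LN-BEC by 1.77 ± 0.12 (adjusted p = 3.5e-08). Its difference between LN-LEC and LN-BEC, 0.25 ± 0.11, missed the threshold (adjusted p = 0.094) but passed when LN-LEC replicate 2 was left out (adjusted p = 0.044).

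Irgm1 (chr11:48678751-48684848, minus strand), a regulator found on the Golgi and on mitochondria, had 5917, 4578, 5369 and 5771 normalized counts in LN-LEC and 6255, 6038 and 5228 in LN-BEC. In D-LEC it had 1603, 1511 and 2263. The lymph node libraries overlapped each other and none reached down to the diaphragm libraries. The differences from D-LEC were 1.61 ± 0.15 for LN-LEC and 1.71 ± 0.15 for LN-BEC (edgeR adjusted p = 9.8e-07 and 7.1e-07).

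Igtp (chr11:58013058-58021094, plus strand), also known as Irgm3 and found on the endoplasmic reticulum, had 1898, 1591, 2161 and 2105 normalized counts in LN-LEC and 1849, 2130 and 2460 in LN-BEC. In D-LEC it had 653, 551 and 592. The pattern of the libraries was that of Irgm1. The differences from D-LEC were 1.72 ± 0.13 for LN-LEC and 1.85 ± 0.14 for LN-BEC (edgeR adjusted p = 1.2e-07 and 7.2e-08). Neither Igtp nor Irgm1 passed the test between LN-LEC and LN-BEC, at -0.13 ± 0.12 and -0.09 ± 0.14.

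The GBPs varied more among themselves. Gbp7 (chr3:142193302-142213047, plus strand) had 9545, 8612, 10642 and 8133 normalized counts in LN-LEC, 11283, 10699 and 11571 in LN-BEC, and 4603, 5054 and 5521 in D-LEC. The populations did not overlap and stood in the order LN-BEC, LN-LEC, D-LEC. Gbp7 was higher than in D-LEC by 0.89 ± 0.10 in LN-LEC (1.85-fold, edgeR adjusted p = 9.6e-06) and by 1.15 ± 0.11 in LN-BEC (2.22-fold, adjusted p = 1.1e-06).

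Gbp3 (chr3:142223016-142236176, plus strand) followed the same order, with 1003, 771, 1121 and 925 normalized counts in LN-LEC, 1397, 1202 and 1189 in LN-BEC, and 477, 520 and 635 in D-LEC. No population overlapped another, although the gap between LN-LEC and LN-BEC was narrow. The differences from D-LEC were 0.83 ± 0.14 in LN-LEC and 1.22 ± 0.15 in LN-BEC (edgeR adjusted p = 0.00022 and 1.0e-05).

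Gbp2 (chr3:142283627-142300972, plus strand), a GBP that carries a lipid anchor and is recruited to vacuoles early, was the one whose LN-LEC level was close to that of the diaphragm. It had 1225, 1162, 1736 and 1454 normalized counts in LN-LEC, 2093, 2062 and 2572 in LN-BEC, and 1198, 1136 and 1313 in D-LEC. All LN-BEC libraries lay above all others, while LN-LEC replicates 1 and 2 lay within the range of D-LEC. LN-LEC and D-LEC differed by 0.22 ± 0.14 (edgeR adjusted p = 0.20), and LN-BEC exceeded D-LEC by 0.89 ± 0.14 (1.85-fold, adjusted p = 0.00018).

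Gbp6 (chr5:105699721-105722718, minus strand), in the GBP cluster of chromosome 5, had the lowest counts of the 8: 608, 499, 606 and 531 in LN-LEC, 582, 630 and 624 in LN-BEC, and 148, 234 and 216 in D-LEC. The lymph node populations overlapped and the diaphragm lay below both. Its differences from D-LEC, 1.50 ± 0.15 and 1.61 ± 0.16 (edgeR adjusted p = 2.2e-06 and 1.4e-06 for LN-LEC and LN-BEC), were the largest of the 4 GBPs. Part of its transcript may be missing from these counts, since 75.4% of its 100-base exon windows had an exact second copy elsewhere in the genome and fragments mapping to several places were not counted.

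Between LN-LEC and LN-BEC fewer of the GTPases differed. Only Gbp2 and Gbp3 were called, both lower in LN-LEC, by -0.67 ± 0.13 and -0.39 ± 0.13 (edgeR adjusted p = 0.0011 and 0.033), and the other 6 did not pass. In this comparison 38.2% of all genes tested were called, 18.4% as lower and 19.8% as higher in LN-LEC, so 2 lower and 0 higher of 8 is not far from the background. Gbp7 missed the threshold at -0.26 ± 0.10 (adjusted p = 0.059) although its libraries did not overlap. The libraries were separate for 3 of 8 genes, beside 44.9% of all genes, and the median difference was -0.12 beside -0.01 over all genes. The call of Gbp2 was kept in all 17 other fits, with differences from -0.79 to -0.57, whereas Gbp7 passed in 6 of 17, among them those without LN-LEC replicate 3 (adjusted p = 0.017) or D-LEC replicate 1 (0.045). The call of Gbp3 was lost in 6 of 17, those without LN-LEC replicate 1, 2 or 4, without LN-BEC replicate 1 or 2, or without LN-BEC replicate 3 and LN-LEC replicate 4 together (adjusted p from 0.052 to 0.14).

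**Figure D2:**
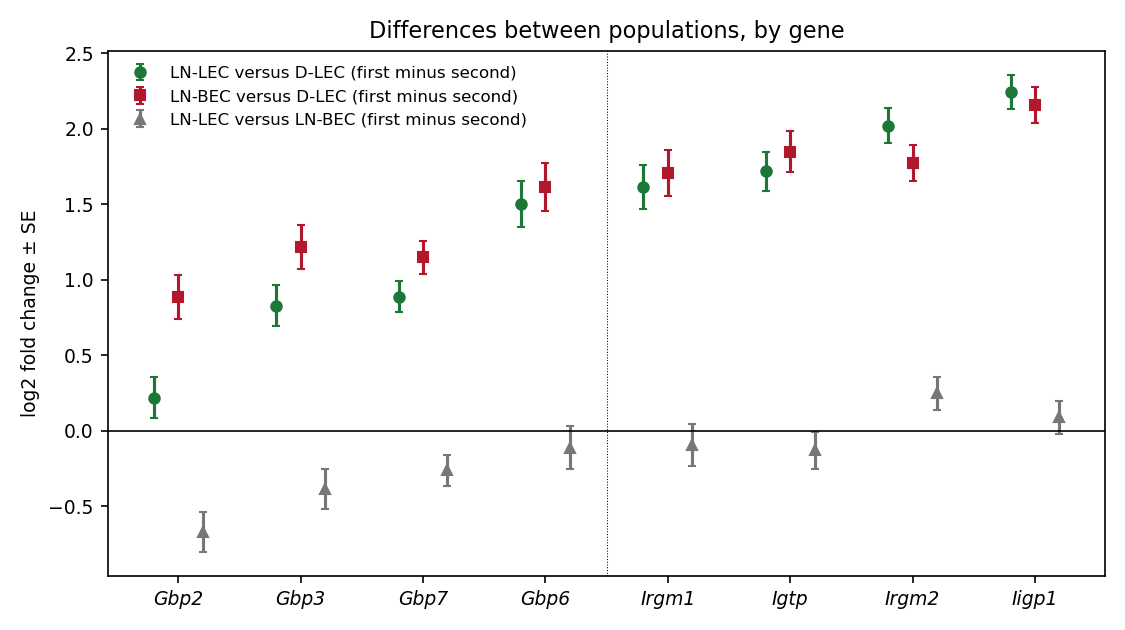
Log2 fold changes with their standard errors for the 8 measured GTPases in the 3 comparisons, with GBPs left and IRGs right of the dotted line. Differences from D-LEC run from 0.22 for Gbp2 to 2.24 for Iigp1, and those between LN-LEC and LN-BEC lie between -0.67 and 0.25.

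Among these 8 genes, the IRGs and the GBPs occupied separate ranges of difference from the diaphragm. In LN-LEC the 4 IRGs lay 1.61 to 2.24 above D-LEC on the log2 scale (median 1.87) and the 4 GBPs 0.22 to 1.50 (median 0.86). In LN-BEC the ranges were 1.71 to 2.16 (median 1.81) and 0.89 to 1.61 (median 1.18). These are descriptions over 4 genes each, and genes are not replicates of a population. The separation did not extend to the other GBPs: Gbp4, at 2.15 in LN-LEC and 4.23 in LN-BEC, and Gbp11, at 3.54 and 3.37, lay within or above the range of these IRGs.

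The balance of these 8 genes can also be read inside each library, where scaling between libraries has no part. Summed per length, as fragments scaled to gene length and library size (FPKM), the 4 IRGs stood to the 4 GBPs in a ratio of 2.94, 2.66, 2.57 and 3.12 in LN-LEC, 2.11, 2.31 and 2.04 in LN-BEC, and 1.29, 1.11 and 1.32 in D-LEC. No population overlapped another in this ratio. The means were 2.82 ± 0.252 (SD, n = 4), 2.15 ± 0.142 (n = 3) and 1.24 ± 0.111 (n = 3). The 8 genes together took 0.101% to 0.130% of all counted fragments in LN-LEC, 0.0977% to 0.111% in LN-BEC, against 0.0386% to 0.0475% in D-LEC.

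**Figure D3:**
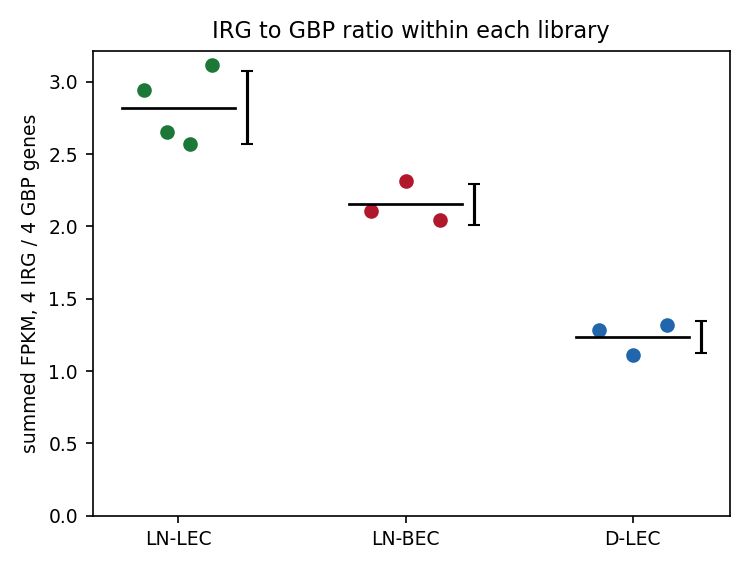
Summed FPKM of the 4 IRGs (Irgm1, Irgm2, Igtp, Iigp1) divided by that of the 4 GBPs (Gbp2, Gbp3, Gbp6, Gbp7), 1 point per library with the mean as a line and the SD as a bracket. LN-LEC libraries lie between 2.57 and 3.12, LN-BEC between 2.04 and 2.31 and D-LEC between 1.11 and 1.32.

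Levels of different genes were compared per length, in FPKM within a population. In LN-LEC the order was Iigp1 (106 ± 12.9, SD, n = 4), Irgm1 (83.2 ± 8.03), Gbp7 (57.2 ± 8.40), Irgm2 (40.0 ± 4.58), Igtp (32.9 ± 4.18), Gbp2 (19.5 ± 3.81), Gbp3 (12.4 ± 2.06) and Gbp6 (4.46 ± 0.506). Only Irgm2 and Igtp overlapped there among neighbours. LN-BEC had nearly the same order, from Iigp1 at 86.9 ± 4.95 (n = 3) to Gbp6 at 4.18 ± 0.336. The FPKM ranges of Iigp1, Irgm1 and Gbp7 ran into each other there, as did those of Igtp, Irgm2 and Gbp2. In D-LEC the head of the order was Gbp7 (30.5 ± 2.81, n = 3), Irgm1 (27.0 ± 6.45) and Iigp1 (22.3 ± 2.82), with neighbours overlapping, and Gbp2 (16.6 ± 1.45) stood above Igtp (9.93 ± 1.01) and Irgm2 (9.77 ± 1.58). The FPKM of Gbp6 may be understated, since its length includes the copied bases. With only the uncopied length it was 18.1 in LN-LEC, 17.0 in LN-BEC, against 6.27 in D-LEC. Read pairs lying only partly in copied bases may still have been counted, so these values may be too high.

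Near-identical copies limited what was counted. Gvin1 (chr7:113043633-113358854, minus strand) encodes a GTPase several times longer than a GBP. Of its 18078 exon bases, 18072 were annotated also to Gm4070, and 97.7% of its 100-base exon windows had an exact second copy. Fragments that overlap a pair of genes or map to several places were left out of the counts. Gm4070 likewise had 0 counts in all libraries, so 0 for Gvin1 is no measure of its transcription. The same held for Tgtp1, whose exon bases lay entirely within those annotated to Tgtp2 and which had 0 counts, whereas Tgtp2, part of whose exon bases are annotated to it alone, had counts in every library. Among the measured genes, copies were found for 8.46% of the windows of Igtp, 3.50% of Irgm2, 1.55% of Gbp3 and 0.538% of Gbp7, and for none of Gbp2, Irgm1 and Iigp1. The coding sequence of Gbp6 was 98.4% identical to that of its neighbour Gbp10. Copies were also found for 66.8% of the windows of Gbp10 and 80.0% of those of Tgtp2, so their counts may be too low as well.

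**Figure D4:**
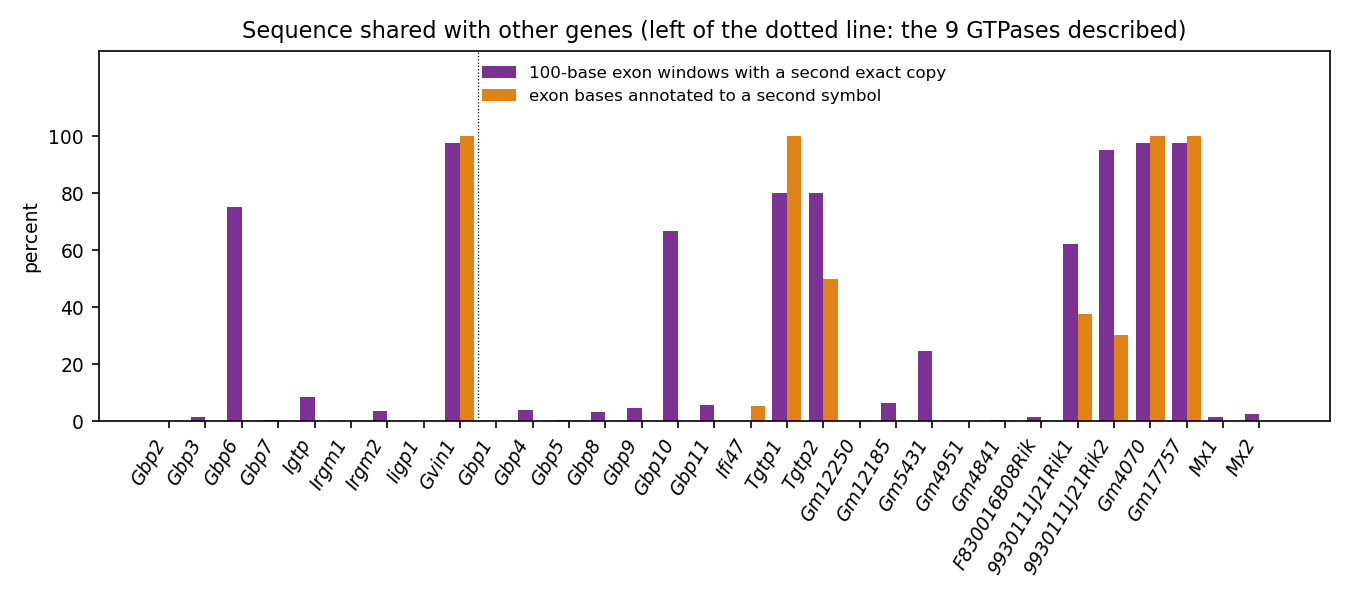
Percent of the 100-base windows of each gene that have another exact copy in mm9 (purple) and percent of exon bases annotated to a second symbol (orange), by gene. Gvin1, at 97.7% and close to 100%, and Gbp6, at 75.4% of windows, stand out among the 9 GTPases left of the dotted line.

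Several other GTPases of the family, such as Ifi47 and Tgtp2, had larger differences from D-LEC than any of the genes above. Of 13 tested, 11 were higher in LN-LEC against D-LEC and none was lower. In LN-BEC 10 were higher and 1, Irgq, a divergent relative, was lower. Of all genes tested, 24.0% were called higher and 21.7% lower in LN-LEC, and 25.6% and 22.4% in LN-BEC. Gbp1 and Irgc1 averaged at most 15.2 normalized counts in any population. Without these 2, the medians over 11 genes were 2.20 in LN-LEC and 3.00 in LN-BEC, and -0.01 between LN-LEC and LN-BEC. Over all genes tested the medians were 0.03, 0.05 and -0.01. Ifi47, an IRG effector, had 4746 ± 739 normalized counts in LN-LEC, 4833 ± 541 in LN-BEC, against 226 ± 50.9 in D-LEC, a difference of 4.41 ± 0.18 and 4.42 ± 0.18 on the log2 scale. Tgtp2, another effector, differed by 4.45 ± 0.15 and 4.74 ± 0.15. Gbp5, which helps to assemble the inflammasome, differed by 1.85 ± 0.24 and 2.30 ± 0.25, Gbp8 by 2.49 ± 0.38 and 1.71 ± 0.39, Gbp9 by 1.36 ± 0.13 and 1.84 ± 0.14, and Mx2, an antiviral GTPase, by 1.70 ± 0.13 and 1.57 ± 0.14. Gbp10 and Gbp11 were also higher in both, from at most 11.4 normalized counts in any D-LEC library. All of these passed edgeR's test.

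A few relatives separated the lymph node populations from each other. Gbp4 had 1880, 1459, 2329 and 1760 normalized counts in LN-LEC, 7870, 7960 and 7933 in LN-BEC, and 275, 392 and 597 in D-LEC. It was lower in LN-LEC against LN-BEC by -2.08 ± 0.23 (edgeR adjusted p = 4.4e-05). Mx1, an antiviral GTPase of the dynamin type, ran the other way, with 2030, 1287, 1375 and 1580 in LN-LEC against 460, 407 and 348 in LN-BEC, a difference of 1.97 ± 0.18 (adjusted p = 1.8e-06). Its raw counts in D-LEC were 1, 7 and 4. Gbp9 and Tgtp2 were lower in LN-LEC as well, by -0.48 ± 0.13 and -0.29 ± 0.11, and Irgq was higher by 0.37 ± 0.13. Gbp1 was rare everywhere, with raw counts of 22, 8, 14 and 10 in LN-LEC, 2, 0 and 4 in LN-BEC and 0, 1 and 0 in D-LEC, and was higher in LN-LEC against LN-BEC (adjusted p = 0.022). Irgc1, known from testis, had at most 2 counts in any library.

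Relatives with provisional symbols were tested in a fit of 17668 genes that kept such names. There 21 family genes were tested, of which 18 were higher in LN-LEC against D-LEC (44.1% of all genes called), and 17 were higher and 1 lower in LN-BEC (46.3% called). Between LN-LEC and LN-BEC, 4 were higher and 4 lower (36.6% called). Gm12250, also known as Irgb10, was higher in LN-LEC against D-LEC by 5.06 ± 0.20. Gm4951 was higher by 4.79 ± 0.29, Gm4841 by 4.69 ± 0.34 and F830016B08Rik by 4.96 ± 0.30. In LN-BEC these values were 4.93 ± 0.20, 3.94 ± 0.28, 5.93 ± 0.34 and 4.65 ± 0.31. Gm4951 was higher in LN-LEC against LN-BEC by 0.85 ± 0.23 (edgeR adjusted p = 0.018) and Gm4841 lower by -1.24 ± 0.23 (adjusted p = 0.00064), although both are IRGs of chromosome 18, as is Iigp1. Gm12185 and Gm5431 were higher in both lymph node populations, by 2.21 to 2.70. 9930111J21Rik1 was higher too, by 0.91 ± 0.29 and 1.54 ± 0.31, and 9930111J21Rik2 passed in neither. Exact copies were found for 62.4% and 95.3% of their 100-base exon windows, so part of their transcripts may be missing from the counts. Gm17757 had 0 counts, but 97.6% of its windows had a copy and 100% of its exon bases were annotated also to Gm18853. Its 0 is therefore no measure of its transcription.

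**Figure D5:**
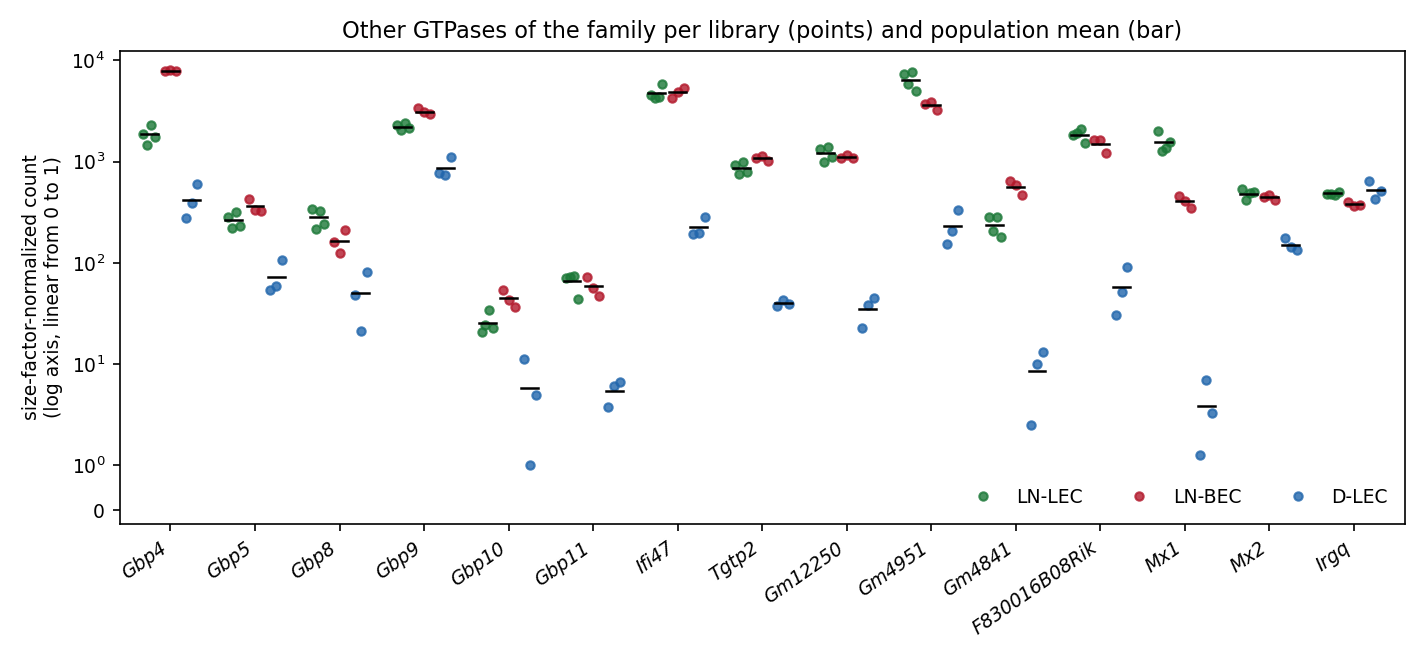
Size-factor-normalized counts of 15 other GTPases of the family (log axis, linear between 0 and 1), 1 point per library and a bar at each population mean. The D-LEC points are the lowest for all genes shown except Irgq, and Gbp4 and Mx1 separate LN-LEC from LN-BEC in opposite directions.

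The ligands that induce these GTPases were hardly found among the fragments counted in the endothelial libraries. Copies of exon windows were not sought for the interferon genes, so counts of any with near-identical copies may be too low. Ifng had 0 counts in all 10 libraries, which allows up to 3 counts in each. Of 9 interferon genes in the table, 1 had enough counts to be tested: Ifnk, a type I interferon, with raw counts of 2, 2, 0 and 7 in LN-LEC, 21, 4 and 10 in LN-BEC and 2, 0 and 0 in D-LEC (edgeR adjusted p = 0.020 for LN-BEC against D-LEC).

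The receptor chains and kinases were present in all populations. Against D-LEC, 8 of the 12 genes of this step were higher and 1, Tyk2, lower in LN-LEC, with a median of 0.74. In LN-BEC 10 were higher and 1 lower, with a median of 0.91. Beside this, 24.0% of all genes tested were called higher and 21.7% lower in LN-LEC (median 0.03). For LN-BEC the shares over all genes were 25.6% and 22.4% (median 0.05). The interferon gamma receptor chains Ifngr1 and Ifngr2 were higher in LN-LEC by 0.54 ± 0.07 and 1.84 ± 0.10, and in LN-BEC by 1.04 ± 0.08 and 1.28 ± 0.11. The type I receptor chains Ifnar1 and Ifnar2 were higher by 0.54 ± 0.10 and 0.77 ± 0.10 in LN-LEC, and by 0.89 ± 0.10 and 0.93 ± 0.11 in LN-BEC. Jak1, the kinase that both receptors use, had 43488 ± 1442 normalized counts in LN-LEC, 15336 ± 796 in LN-BEC, against 7630 ± 241 in D-LEC. It was higher in LN-LEC against LN-BEC by 1.52 ± 0.08 (edgeR adjusted p = 6.5e-09). Jak2, the partner of Ifngr2, was higher in LN-BEC by 0.43 ± 0.09, and in LN-LEC it differed from D-LEC by 0.03 ± 0.08, which did not pass. Il28ra, a chain of the lambda interferon receptor, was low throughout, with means of 6.25, 20.9 and 2.13 normalized counts in the order LN-LEC, LN-BEC, D-LEC.

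Of 7 interferon-induced transcription factors, 7 were higher in LN-LEC and 6 in LN-BEC than in D-LEC, with medians of 2.52 and 2.26. Over all genes tested, 24.0% and 25.6% were called higher, with medians of 0.03 and 0.05. Irf1, which binds GBP promoters, was higher by 1.66 ± 0.14 and 2.19 ± 0.15. Irf7, a regulator of type I interferon genes, was higher by 2.52 ± 0.21 and 2.85 ± 0.22, and Nlrc5, the activator of MHC class I genes, by 2.84 ± 0.08 and 2.73 ± 0.08. Irf8 had 4381 ± 430 normalized counts in LN-LEC against 566 ± 157 in LN-BEC and 751 ± 149 in D-LEC. Ciita, the activator of MHC class II genes, was higher in both, by 1.53 ± 0.39 and 2.82 ± 0.41. Its means were low, at 36.5, 90.8 and 12.7 normalized counts in the order LN-LEC, LN-BEC, D-LEC. Of 9 negative regulators, 5 were higher and 2 lower in LN-LEC, with a median of 0.26. In LN-BEC 4 were higher and 3 lower, with a median of 0.18. The shares of all genes tested that were called lower were 21.7% in LN-LEC and 22.4% in LN-BEC. Socs1, an inhibitor of Janus kinases, had 548 ± 88.3, 196 ± 16.7 and 49.2 ± 3.96 normalized counts in the order LN-LEC, LN-BEC, D-LEC. The phosphatases Ptpn6 and Ptpn2 were higher in LN-LEC by 3.58 ± 0.41 and 1.15 ± 0.13, and Socs3 was lower by -1.07 ± 0.27. Ptpn6 was low, with means of 115, 75.4 and 9.98 normalized counts in the same order of populations.

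Other targets of interferon moved mostly in the direction of the GTPases. Over all genes tested, 24.0% were called higher and 21.7% lower in LN-LEC than in D-LEC (median 0.03). For LN-BEC these shares were 25.6% and 22.4% (median 0.05). Of 14 type II targets, 11 were higher and 2 (Ido1 and Gch1) lower in LN-LEC against D-LEC, with a median of 3.02, and 13 were higher in LN-BEC, with a median of 2.89. Serpina3g, a serine protease inhibitor, had 17180 ± 732, 2342 ± 475 and 35.4 ± 6.52 normalized counts in the order LN-LEC, LN-BEC, D-LEC, and its neighbour Serpina3f had 4824 ± 277, 1050 ± 264 and 5.38 ± 2.48. Ubd, a ubiquitin-like modifier, had 1640 ± 94.9, 46366 ± 6729 and 5.42 ± 6.23. The chemokine Cxcl9 had 3036 ± 2073, 4338 ± 974 and 20.2 ± 8.83. The 17 type I targets were higher in 16 cases in LN-LEC (median 1.43) and in 17 in LN-BEC (median 1.72). Between LN-LEC and LN-BEC, 12 of these 17 were lower in LN-LEC and 1 was higher, with a median of -0.51. Of the 8 GTPases 2 were lower there, and of all genes tested 18.4% were lower and 19.8% higher (median -0.01). Rsad2, the antiviral enzyme viperin, was lower in LN-LEC against LN-BEC by -3.41 ± 0.21, Oas2 by -1.95 ± 0.19 and Oasl2 by -1.42 ± 0.22, while Oas3 differed by 0.09 ± 0.65 and did not pass.

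Lists of the partners through which the GTPases act were read against the 45.8% of all genes called in LN-LEC and the 48.0% called in LN-BEC. The ATG8 conjugation system places LC3 proteins on vacuoles and is needed for IRGs and GBPs to load onto them. Of 14 genes of this system and of ubiquitin ligases, 1 was higher and 5 were lower in LN-LEC against D-LEC (median -0.21). In LN-BEC 2 were higher and 4 lower (median -0.23). The shares called in either direction were close to those over all genes, but more were lower than higher. Of all genes, 24.0% were called higher and 21.7% lower in LN-LEC, and 25.6% and 22.4% in LN-BEC. Map1lc3b, the main LC3 gene, was lower by -1.10 ± 0.11 and -1.48 ± 0.12, Atg7 by -0.91 ± 0.12 and -0.76 ± 0.13 and Map1lc3a by -0.77 ± 0.12 and -0.47 ± 0.13, while the ubiquitin ligase Trim21 was higher by 0.93 ± 0.11 and 1.24 ± 0.12. Of 11 inflammasome genes, which respond to the bacterial products that GBPs release, 7 were higher in LN-LEC (median 1.46), and in LN-BEC 6 were higher and 1, the cytokine Il18, was lower (median 0.98). Casp1, the inflammasome protease, had 2901 ± 329, 682 ± 63.0 and 40.0 ± 11.2 normalized counts in the order LN-LEC, LN-BEC, D-LEC, and its adaptor Pycard was higher by 3.21 ± 0.19 and 2.22 ± 0.19. Aim2, a DNA sensor, had 6.97 ± 3.14, 271 ± 69.0 and 1.34 ± 2.31. Of 10 enzymes of prenylation and lipid anchoring, which tether some GBPs and IRGs to membranes, 2 were higher and 2 lower in LN-LEC, and 1 each in LN-BEC, with medians of -0.08 and 0.01 and shares no larger than over all genes. Pggt1b, a subunit of the geranylgeranyl transferase, was higher by 0.53 ± 0.14 and 0.78 ± 0.15, Metap2 was higher in LN-LEC by 0.43 ± 0.07, and the farnesyl transferase subunits Fnta and Fntb were lower in LN-LEC by -0.40 ± 0.08 and -0.70 ± 0.23.

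The genes whose profile over the 10 libraries was nearest to the mean profile of the 8 GTPases were sought among 15373 genes, by the root mean square difference of centred log2 CPM. They were Rom1 (0.113), known from photoreceptors, Sp110 (0.127), a nuclear body protein, Ifi44 (0.127), an interferon target, Tapbpl (0.131), a peptide editor of MHC class I, and Tnfrsf22 (0.133), a decoy receptor of the TNF family. Among the GTPases themselves Gbp6 was nearest (0.161), followed by Irgm1 (0.166) and Igtp (0.194), and Gbp2 farthest (0.501). Sp110 was higher than in D-LEC by 1.43 ± 0.12 in LN-LEC and 1.50 ± 0.13 in LN-BEC.

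Markers of other cell types moved with some of these differences. The summed normalized counts of 5 B cell markers were 337 to 485 in LN-LEC, 570 to 851 in LN-BEC, against 13.2 to 40.4 in D-LEC, with Pax5 at 0 in LN-LEC and D-LEC. Cd79b alone had means of 367, 364 and 9.78 in the same order, most of the sum in LN-LEC. The sums of 6 T and NK cell markers were 31.7 to 49.0, 188 to 352 and 8.02 to 32.8, with Ncr1 at 0 in LN-LEC and D-LEC. The 5 pericyte and smooth muscle markers summed to 3074 to 5058, 5133 to 6601 and 159 to 309. Rgs5 alone had means of 3856, 4393 and 66.4, most of the sum in both lymph node populations. In LN-LEC 4 of the 5 were called higher than in D-LEC, and Cspg4 (means 2.99 and 3.52) was not. In D-LEC 7 skeletal muscle markers summed to 946 to 1348 against at most 16.6 in lymph node libraries, where Myh4 was at 0 in LN-BEC, and 4 mesothelium markers to 562 to 1751 against at most 131. The 6 myeloid markers summed to 267 to 362, 346 to 509 and 498 to 882, and the ranges of 6 fibroblast markers overlapped among all populations. Their part in the differences of the GTPases was not tested. The labels were borne out by 5 lymphatic markers, at 94668 to 119450 in LN-LEC and 387239 to 415551 in D-LEC but 2891 to 7955 in LN-BEC, the highest in LN-BEC replicate 3, and by 4 blood endothelial markers, at 69497 to 72713 in LN-BEC and at most 1374 in the others. Without LN-BEC replicate 3 and LN-LEC replicate 4, the numbers of GTPases higher than in D-LEC were again 7 in LN-LEC and 8 in LN-BEC. In that fit 1 in place of 2 was lower in LN-LEC against LN-BEC.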

How the data were processed

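The authors sorted the cells, amplified the RNA (Ovation RNA-Seq System V2), sequenced read pairs, used STAR for alignment to mm9, and tallied fragments over the exons of each symbol by featureCounts 1.4.4. Strand was ignored and fragments mapping to several places or overlapping several genes were not counted. The deposited values are raw counts, and a gene length was deposited beside them. Near-identical and overlapping genes therefore lose counts. Replicate numbers follow the order of the records and pair nothing. The labels name no batch. Each library is a pool of mice, so p-values measure the spread between pools.

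Counts were divided by size factors (DESeq2) for levels, and FPKM was computed from counts, length and library total. Predicted, clone and similar symbols (3755) were left out, and a gene entered the tests when some population averaged 1 or more normalized counts (15373). Tests used edgeR 4.0.16 in R 4.3.3: TMM, 1 mean per population over all 10 libraries, a robust quasi-likelihood F test and Benjamini-Hochberg adjustment over all genes tested within each of the 3 comparisons, with calls at adjusted p under 0.05. DESeq2 1.42.0, other scaling, other filters, smaller fits and left-out libraries were alternatives. On simulated counts with 200 changed genes among 15373, edgeR recovered 93%, 84% and 92% of 2-fold changes in LN-LEC versus D-LEC, LN-BEC versus D-LEC and LN-LEC versus LN-BEC. It also called 6, 13 and 12 unchanged genes. The simulation gave every gene the same dispersion and drew no changed gene from those with few counts. Far more genes differ in the data, so these rates check the procedure and are not the power in these libraries. Copies of 100-base exon windows were sought in mm9, and coding sequences compared, with Python 3.11.15 and Biopython 1.88.

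The genes and lists were chosen with earlier results of these data known. Genes were named by a rule: the 9 GTPases, every other GTPase listed, genes of the signalling chain (Ifng, Ifngr1, Ifngr2, Ifnar1, Ifnar2, Jak1, Jak2, Irf1, and a further one not reported here), up to 4 genes with the largest called differences in each further list, and the 5 nearest profiles. Tyk2, Ido1, Gch1 and some examples were named after their values were seen. Marker lists covered endothelium, lymphatic and blood endothelium, B, T and NK, myeloid, fibroblast, pericyte, skeletal muscle and mesothelial cells.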

Additional observations from a re-analysis of the deposited data

How the results depend on the processing

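Every call between a lymph node population and D-LEC, and the absence of one for Gbp2 in LN-LEC, stayed as reported under all 17 alternatives for each gene (DESeq2, other size factors, 2 other filters, all symbols kept, smaller fits and libraries left out), and no difference of a GTPase changed direction. Between LN-LEC and LN-BEC the number of GTPases lower in LN-LEC, 2 as reported, ranged from 1 to 3 when single libraries were left out and was 1 without LN-BEC replicate 3 and LN-LEC replicate 4 together. The number higher in LN-LEC, 0 as reported, ranged from 0 to 1. Gbp3 lost its call without LN-LEC replicate 1, 2 or 4 or LN-BEC replicate 1 or 2 (adjusted p from 0.052 to 0.14), with fewer libraries in each fit. Gbp7 passed with DESeq2 (adjusted p = 0.033), RLE size factors in edgeR (0.046), filterByExpr (0.049), only the libraries compared (0.04998), without LN-LEC replicate 3 (0.017) and without D-LEC replicate 1 (0.045). The cause was not tested. FPKM over the uncopied length moved Gbp6 to 18.1, 17.0 and 6.27 (LN-LEC, LN-BEC, D-LEC), and Igtp to 34.0 in LN-BEC, by the shorter length. These values treat copied stretches as wholly uncounted and may be too high. With TMM scaling, chosen after seeing the data, 2 in place of 3 GTPases were separate between LN-LEC and LN-BEC, and 4 without the pair of libraries. No paired analysis was possible because the labels give no replicate numbers that the populations share. With 3 or 4 pooled libraries a population, the size of difference that the fit could call depended on the counts and spread of each gene.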
